A study of Mus musculus with 20 samples.

Results

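IMO-8400 blocks 3 Toll-like receptors, TLR7, TLR8 and TLR9, and skin inflamed by IL-23 and then treated with it was compared here with the skin of naïve mice, to describe what stayed changed under the antagonist. The comparison used the 5 arrays of IMO-8400 mice and the 5 arrays of naïve mice out of the 20 arrays of the series, chosen by their labelled group and by no measured value. All mice were female C57BL/6, 6 weeks old at purchase and housed for 1 week before use. The IMO-8400 mice received 3 µg of IL-23 into the skin of the back on each of days 1 to 4 and 15 mg/kg of IMO-8400 under the skin, away from the IL-23 site, on days 4, 5 and 6. Skin was taken on day 7. The naïve mice are labelled as naïve and normal, and the labels do not say whether they were injected, so that in this comparison IL-23, any injections and the antagonist cannot be told apart. The 5 saline mice received IL-23 and then the vehicle, and the 5 IMO-3100 mice received IL-23 and then an antagonist of TLRs 7 and 9; both are used to place the values. The sample labels name these compounds, whereas the description of the series mentions different doses of a TLR7/8/9 antagonist, and the labels were followed. Each array carries RNA of full-thickness skin from a separate mouse, and levels are log2 values per probe-set, a group of array probes that reads 1 transcript. In whole skin, fewer cells of a type and less RNA per cell cannot be told apart.

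IL-23 is a cytokine that maintains T cells of the Th17 type and other lymphocytes that make IL-17, and the IL-23 and IL-17 axis is the best known driver of psoriasis. IL-17 acts on keratinocytes, which answer with antimicrobial peptides, S100 proteins and chemokines that draw neutrophils, while the epidermis thickens. TLRs 7, 8 and 9 sense nucleic acids inside endosomes, signal through Myd88 and activate NF-kB and interferon regulatory factors.

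The defining markers of skin were high in both groups. Krt5, the keratin of basal keratinocytes, lay between 14.16 and 14.42 in naïve and between 14.29 and 14.41 in IMO-8400 mice, and Col1a1, a fibroblast collagen, between 14.35 and 14.95 and between 14.23 and 14.58. Acta1, the actin of skeletal muscle, was at 13.99 to 14.78 and 14.45 to 14.57, so the samples held the muscle layer under the skin in both groups. Of the red blood cell genes, Hba-a1 was at the lowest value of the arrays, 2.02, in all 10 mice, while the mean of the 2 tested members, Alas2 and Slc4a1, was 6.04 in naïve mouse 16 and 4.48 in naïve mouse 17, against 2.105 to 2.58 in IMO-8400 mice and 2.105 to 2.562 in the other naïve mice. Of the naïve mice, mouse 16 stood apart: its median correlation with the other naïve arrays was 0.932, against 0.972 to 0.982 for the other 4 and 0.990 to 0.992 within the IMO-8400 group. Naïve mice also differed in their level of hair genes, as given below, and the main counts are therefore also given without them.

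A minority of genes differed between the skin of IMO-8400 and naïve mice. Of 30936 probe-sets tested, 1114 (3.6%) were higher and 753 (2.43%) lower in IMO-8400 skin at a false discovery rate (FDR) under 0.05 and a fold change over 2, the rule by which a probe-set is called a DEG below. They made 1867 DEGs (6.04%) and stood for 793 genes that were higher and 488 that were lower. For 23347 probe-sets (75.5%) the 95% interval of the difference lay inside 2-fold in either direction, probe-sets near background in both groups included. The values of the 5 IMO-8400 and the 5 naïve arrays did not overlap for 3625 probe-sets (11.7%). Between saline and naïve skin, by the same rule and on the same naïve arrays, 2346 probe-sets (7.58%) were higher and 2762 (8.93%) lower. Against saline skin, 1380 (4.46%) were higher and 1110 (3.59%) lower in IMO-8400 skin. How many DEGs of IMO-8400 against naïve skin were also DEGs of saline against naïve skin was not counted. Some, such as Flg and Scgb1b27 below, lay above both naïve and saline skin. The median difference between IMO-8400 and naïve skin over all tested probe-sets was −0.03 on the log2 scale. Without naïve mouse 16 the counts were 910 and 756, of which 823 and 529 were DEGs with it as well. Without naïve mice 16 and 17 they were 851 and 704, of which 715 and 396 were shared, and with the IMO-8400 and naïve arrays alone in the model 728 and 357.

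**Figure D1:**
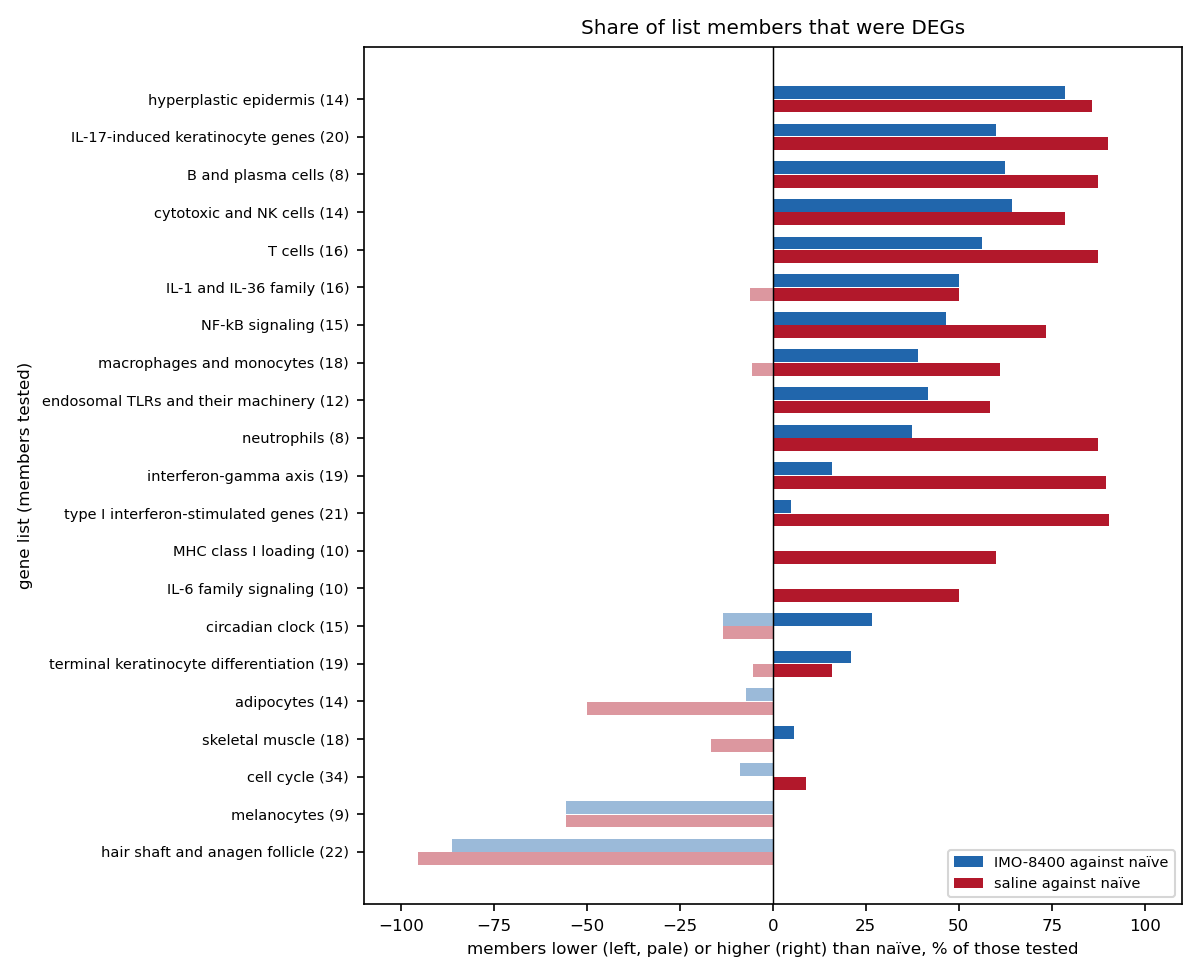
Share of the tested members of 21 gene lists that were DEGs, in % on the x axis, for IMO-8400 against naïve skin (blue) and saline against naïve skin (red), with members that were higher to the right and members that were lower to the left in pale colours. The number of members tested stands after each list name, and both comparisons use the same 5 naïve arrays. The IL-17-induced keratinocyte genes reach 12 of 20 members in IMO-8400 skin and the type I interferon-stimulated genes 1 of 21. The circadian clock list has members to the right for IMO-8400 but not for saline skin, and IMO-3100 skin is not drawn.

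The cytokines at the head of the pathway were back near background. Il17a, the cytokine of Th17 cells, was at 2.03, 2.03, 2.19, 2.03 and 2.03 in the IMO-8400 mice and between 2.02 and 2.03 in the naïve mice, where levels under 3 are close to the lowest value an array gives. The saline mean was 5.71. The difference between IMO-8400 and naïve skin was 0.04 (95% interval −0.41 to 0.49, limma FDR 0.927), but with both groups near background this gives no bound on a difference in transcript. Il6, a cytokine that helps Th17 cells form, was at 2.02 to 2.07 in IMO-8400 skin and 2.02 to 2.35 in naïve skin against a saline mean of 8.65, with a difference of −0.05 (−0.80 to 0.70). Ifng, the cytokine of Th1 and cytotoxic cells, was at 2.89 to 3.13 in IMO-8400 mice and at 2.17 to 2.31 in naïve mice. Its 2 groups did not overlap, and the saline mean was 6.52. The difference of 0.77 (−0.12 to 1.67) had an FDR of 0.219 in the model, which takes its spread from all 4 groups. Over the alternative models the lowest FDR of Ifng was 5.03e-04, and its difference was at most 0.81, which is under 2-fold. Of the 12 tested genes of the IL-17 and Th17 list, 2 were higher and none lower. They were Ccr6, the chemokine receptor of Th17 cells, by 2.66, and Batf, a transcription factor of Th17 differentiation, by 2.54.

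The targets of IL-17 in keratinocytes stayed higher in part. Of 20 tested members of the IL-17-induced keratinocyte list, 12 were higher in IMO-8400 than in naïve skin and none was lower, where 18 were higher in saline skin. The median difference from naïve skin was 1.89 on the log2 scale in IMO-8400 and 5.07 in saline skin, against −0.03 over all probe-sets in IMO-8400 skin, and 13 of the 20 members were lower in IMO-8400 than in saline skin. The count lay between 11 and 12 without any single array, without naïve mice 16 to 18 and with the hair level as a covariate. The mean of the list was 8.18, 8.09, 8.45, 7.80 and 8.55 in the IMO-8400 mice and 5.45, 5.75, 5.80, 5.78 and 5.72 in the naïve mice, with 10.3 to 11.6 in saline mice. The 3 groups did not overlap.

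The promoters of 4 of these genes, the chemokines Cxcl1 and Cxcl2, the acute-phase gene Saa3 and the calprotectin subunit S100a9, are shown because all 4 genes were DEGs with large rises and hold one of the sites searched. They are 300 bases each, from RefSeq on GRCm38.p6, written 5′ to 3′ on the gene's strand and covering the start of the transcript. Capitals mark an NF-kB site (GGG, any 2 bases, then TTTCC) in Cxcl1 and Cxcl2 and a C/EBP site, TTGCNNAA, in Saa3 and S100a9, searched on both strands. The Cxcl1 window is chr5:90890995-90891294 on the plus strand, the Cxcl2 window chr5:90903649-90903948 on the plus strand, the Saa3 window chr7:46715627-46715926 on the minus strand and the S100a9 window chr3:90695672-90695971 on the minus strand.
Cxcl1: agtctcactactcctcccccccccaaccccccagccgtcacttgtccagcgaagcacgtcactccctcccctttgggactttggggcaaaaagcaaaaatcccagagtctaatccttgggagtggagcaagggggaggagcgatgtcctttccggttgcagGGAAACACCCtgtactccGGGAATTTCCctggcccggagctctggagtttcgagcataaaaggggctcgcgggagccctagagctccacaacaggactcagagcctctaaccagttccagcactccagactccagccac
Cxcl2: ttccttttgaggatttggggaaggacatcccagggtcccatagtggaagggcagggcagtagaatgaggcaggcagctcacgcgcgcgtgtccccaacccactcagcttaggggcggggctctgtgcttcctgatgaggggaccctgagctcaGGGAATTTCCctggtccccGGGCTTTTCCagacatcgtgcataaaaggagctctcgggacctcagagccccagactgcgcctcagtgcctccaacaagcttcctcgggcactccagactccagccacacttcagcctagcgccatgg
Saa3: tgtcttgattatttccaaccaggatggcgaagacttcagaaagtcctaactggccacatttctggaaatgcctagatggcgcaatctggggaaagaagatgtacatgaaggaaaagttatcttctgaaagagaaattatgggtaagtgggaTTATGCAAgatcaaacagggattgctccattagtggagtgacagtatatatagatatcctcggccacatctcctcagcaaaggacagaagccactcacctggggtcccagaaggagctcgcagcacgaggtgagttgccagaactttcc
S100a9: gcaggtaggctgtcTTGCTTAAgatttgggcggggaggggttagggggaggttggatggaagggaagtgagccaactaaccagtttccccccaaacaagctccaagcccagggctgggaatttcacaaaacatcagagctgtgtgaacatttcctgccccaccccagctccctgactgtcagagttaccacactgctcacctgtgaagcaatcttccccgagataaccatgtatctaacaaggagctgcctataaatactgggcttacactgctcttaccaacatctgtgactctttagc
Of the 12 members that were higher, 11 had such a window. The NF-kB site was in 3 of these windows (Ccl20, Cxcl1 and Cxcl2), against 1.63% of 32851 promoters of the same length, and the C/EBP site was in 6, against 10.8%. The 4 promoters were chosen after their matches were seen, and a match describes the letters of the window.

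Among the chemokines, which attract neutrophils, Cxcl1 was at 6.52, 7.69, 8.66, 8.51 and 7.95 in IMO-8400 mice and at 2.54, 4.22, 3.28, 5.49 and 3.46 in naïve mice, with a saline mean of 10.6. The groups did not overlap, and Cxcl1 was higher by 4.07 (2.89 to 5.25, FDR 1.04e-04) than in naïve and lower by 2.70 than in saline skin (FDR 0.00206). Cxcl2, its neighbour on chromosome 5, was at 7.76 to 8.73 in IMO-8400 mice and at 2.02 to 3.74 in naïve mice, a difference of 5.16 (4.17 to 6.14, FDR 1.25e-06). Cxcl3 and Cxcl5 were not DEGs, with IMO-8400 means of 2.76 and 2.60 and naïve means near background, against saline means of 6.89 and 9.06. Ccl20, the ligand of Ccr6, was higher by 1.87.

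The antimicrobial members were divided too. Defb3, a beta-defensin, was at 8.93, 8.64, 9.02, 6.21 and 9.58 in IMO-8400 mice and at 2.48, 2.25, 3.33, 2.26 and 2.41 in naïve mice, with a saline mean of 12.5. It was higher by 5.93 (4.38 to 7.48, FDR 3.75e-05), with IMO-8400 mouse 4 below the other 4. All naïve mice but mouse 18 were near background in Defb3, and its smallest difference over the alternative models was 4.48. Defb4, another beta-defensin, was at 2.04 to 2.07 in IMO-8400 mice and 2.02 to 2.07 in naïve mice against a saline mean of 6.97, so both groups were near background. Lcn2, a lipocalin that binds bacterial siderophores, was at 12.49, 12.20, 12.76, 11.70 and 12.43 against 7.89, 8.74, 8.98, 8.81 and 8.24, which was a rise of 13.8-fold (3.78 on the log2 scale, 3.29 to 4.28, FDR 9.21e-09). It was lower than in saline skin by 1.95 (FDR 3.45e-05). Slpi, an inhibitor of leukocyte proteases, was higher by 3.47.

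S100a8 and S100a9 together form calprotectin, which keratinocytes and neutrophils make. S100a8 was at 14.10, 13.40, 14.40, 13.50 and 14.51 in IMO-8400 and at 10.76, 10.27, 9.54, 8.63 and 10.09 in naïve mice, higher by 4.13 (3.31 to 4.94, FDR 1.81e-06). S100a9 was higher by 4.35 (3.44 to 5.26, FDR 3.35e-06) than in naïve skin, and its difference from saline skin of −0.58 had an FDR of 0.338. Saa3, a serum amyloid A made locally by macrophages and epithelium, was at 14.83, 14.85, 14.74, 14.62 and 14.89 in IMO-8400 mice and at 6.83, 6.65, 6.80, 7.35 and 8.99 in naïve mice. It was higher by 7.46 (6.85 to 8.07, FDR 2.55e-11), and the saline mean of 15.1 was 0.33 above that of IMO-8400 skin (FDR 0.436). Saa1 was higher by 4.28 (3.03 to 5.53, FDR 1.13e-04) and lower than in saline skin by 4.62 (FDR 5.55e-05). Saa2 was not a DEG, with a difference of 0.45 from naïve skin in IMO-8400 and of 7.24 in saline skin. Csf3, which drives the making of neutrophils, and Il24 were near background in both groups, with saline means of 5.55 and 6.78.

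**Figure D2:**
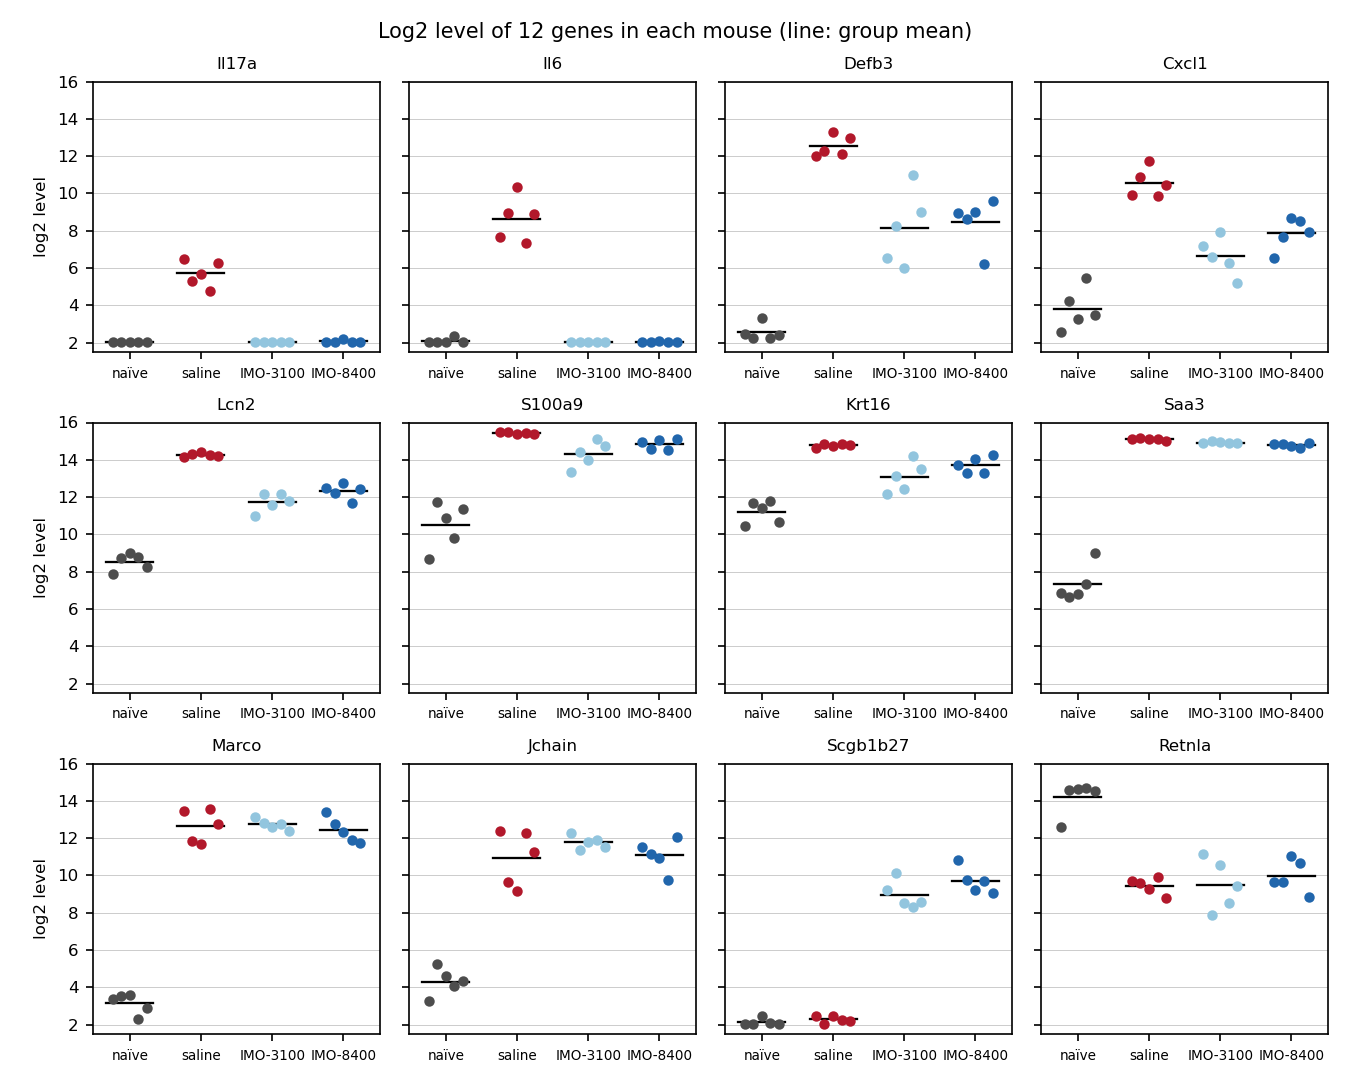
Log2 level (y axis) of 12 genes in each of the 20 mice, by group, with a line at the group mean. Il17a and Il6 in IMO-8400 mice lie with the naïve mice near 2.02, Cxcl1, Lcn2 and Defb3 lie between the naïve and the saline means, Saa3, Marco and Jchain lie at the level of saline mice, and Scgb1b27 is high in the mice given an antagonist and near 2.02 in the others.

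The epidermal genes of wounded and psoriatic skin also stayed higher. In the hyperplastic epidermis list, which holds stress keratins, small proline-rich proteins and the LCE3 family, 11 of 14 tested members were higher than in naïve skin (12 in saline skin), with a median of 3.13 (5.78 in saline skin). The list mean was 11.75, 11.67, 12.01, 10.78 and 12.48 in IMO-8400 mice, 7.77, 9.18, 8.67, 8.85 and 7.77 in naïve mice and 13.4 to 14.0 in saline mice. Krt6b, a keratin of activated epidermis, was at 12.12, 11.21, 12.34, 10.75 and 12.81 against 2.03, 8.37, 6.59, 8.69 and 3.63, higher by 5.99 (3.82 to 8.15, FDR 7.56e-04). The naïve mice spread over more than 6 log2 units, and the groups still did not overlap. Krt16, its partner keratin, was at 13.74, 13.31, 14.04, 13.30 and 14.24 against 10.45, 11.71, 11.40, 11.80 and 10.64. It was higher by 2.53 (1.83 to 3.22, FDR 6.54e-05), a 5.77-fold rise, where saline skin had a 11.9-fold rise. Serpinb3a, a protease inhibitor of the squamous cell carcinoma antigen family, was higher by 6.67, Lce3f by 5.81 and Sprr2d by 5.64. Krt6a and Krt17 were not DEGs, with differences of −0.21 and 0.20.

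Late differentiation genes were at or above the naïve level. Flg, which encodes filaggrin of the cornified layer, was at 13.62, 13.39, 13.26, 12.98 and 13.10 in IMO-8400 mice, at 11.91, 11.65, 11.52, 11.65 and 11.33 in naïve mice and had a saline mean of 11.7. It was higher by 1.66 than in naïve skin (1.24 to 2.07, FDR 2.21e-05) and by 1.58 than in saline skin (FDR 4.54e-05), so its level lay above both. Of 19 tested genes of terminal differentiation 4 were higher and none lower: Flg, Casp14 by 1.29, Rptn by 1.19 and Hrnr by 1.04. Hrnr was no DEG without naïve mouse 16, since its difference fell below 2-fold. In the LCE1 family of cornified envelope proteins 4 of 11 were higher, Lce1h by 2.43, Lce1g by 2.11, Lce1i by 1.37 and Lce1f by 1.30, and 2 were with the hair level as a covariate; these genes are close copies, so that probe-sets may read more than 1 of them. Of the 10 basal keratinocyte genes none was a DEG, and for 9 the interval lay inside 2-fold. Mt4, a metallothionein of differentiating squamous epithelium, had means of 12.7 in naïve, 5.06 in saline and 12.0 in IMO-8400 skin, and was no DEG between IMO-8400 and naïve skin (−0.69).

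The IL-36 cytokines, epidermal members of the IL-1 family that amplify the IL-17 response, stayed higher. The array annotation names them Il1f6 (Il36a), Il1f8 (Il36b) and Il1f9 (Il36g). Il1f6 was at 11.92, 11.60, 11.92, 11.66 and 12.24 in IMO-8400 mice and at 5.04, 7.95, 8.86, 8.14 and 7.17 in naïve mice, higher by 4.44 (3.41 to 5.46, FDR 1.02e-05), and its difference from saline skin was −0.14 (FDR 0.876). Il1f8 was higher by 2.74 and Il1f9 by 1.66, with differences from saline skin of −0.06 and −0.27. Il1b, by contrast, was at 9.49, 9.10, 10.37, 10.25 and 10.10 against 6.90, 7.35, 8.05, 8.41 and 7.68. Il1b was higher than in naïve skin by 2.18 (1.47 to 2.90, FDR 3.29e-04) and lower than in saline skin by 3.60 (FDR 2.57e-06). Of 16 members of the IL-1 and IL-36 list, 8 were higher and none lower. Without naïve mouse 16 the count was 6, and with the hair level as a covariate 5.

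The signaling lists differed in their counts. Of 15 NF-kB genes 7 were higher, led by Rel, a subunit of the factor, at 7.88, 7.90, 8.83, 8.69 and 8.02 against 4.78, 4.15, 5.63, 5.44 and 5.28, a difference of 3.21 (2.58 to 3.84, FDR 1.55e-06). Nfkbid was higher by 1.96, Ikbke by 1.53 and Tnfaip3, an inhibitor of the pathway, by 1.33, while Rela, Relb, Nfkb2 and Nfkbia were not DEGs. With the hair level as a covariate 4 of the NF-kB genes were higher, Nfkbid not among them (FDR 0.0526), and over the models without 1 array 5 to 9 were. None of the 10 genes of the IL-6 family was a DEG in IMO-8400 skin, where 5 were higher in saline skin. In the TNF superfamily Tnfrsf9 was higher by 2.56 and Tnfrsf1b by 1.77, and Tnfrsf11b, the decoy receptor osteoprotegerin, was lower by 1.76; with the hair covariate 1 was higher and none lower.

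The receptors that IMO-8400 blocks were themselves among the genes examined. Tlr7 was at 10.55, 10.65, 10.74, 9.57 and 11.01 in IMO-8400 mice and at 5.29, 8.98, 9.36, 9.13 and 10.39 in naïve mice, so the groups overlapped. It was higher by 1.87 (0.58 to 3.17, FDR 0.0431), and by 1.04 without naïve mouse 16, and it was no DEG under 20 of the alternative models, among them that without naïve mice 16 and 17 (FDR 0.0847). Both other Tlr7 probe-sets, of lower mean level, were DEGs too, higher by 3.08 (FDR 0.00206) and 3.14 (FDR 0.00136). Tlr8 was at 2.02 to 3.85 in IMO-8400 and at 2.02 to 4.36 in naïve mice, with a difference of 0.16 (−0.75 to 1.07, FDR 0.831). Tlr9 was at the lowest value in all mice of both groups and was not tested. Among 12 tested endosomal TLR genes 5 were higher, Tlr13 by 3.85, Irf7 by 1.90, Tlr7, the chaperone Unc93b1 by 1.75 and Irak3 by 1.05. Among 8 cell-surface TLR genes 5 were higher, Tlr1 by 2.49, Tlr2 by 2.26, the coreceptor Cd180 by 1.97, Tlr6 by 1.63 and Cd14 by 1.39. Without naïve mice 16 and 17 the counts were 1 and 3, without IMO-8400 mouse 5 they were 2 and 3, and with the hair level as a covariate both were 0.

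Few interferon genes were DEGs. Of 21 tested type I interferon-stimulated genes, which are induced against viruses, 1 was higher in IMO-8400 skin, Irf7, where 19 were higher in saline skin on the same naïve arrays. The list median was nevertheless 0.87, against 1.51 in saline skin, and the list mean ran from 7.80 in naïve mouse 16 to 11.1 in naïve mouse 19, against 10.3 to 11.4 in IMO-8400 mice. Without naïve mouse 19 the count was 7, and without naïve mice 16 and 17 it was 0. Of 19 genes of the interferon-gamma axis 3 were higher in IMO-8400 skin and 17 in saline skin. The 3 were Tbx21, the T-bet factor of Th1 and NK cells, by at least 2.18 over a naïve level near background, Cxcl10 by 2.14 and Irf8 by 1.78. Without naïve mice 16 to 18 the count was 1 and with the hair level as a covariate it was also 1, Cxcl10 (FDR 0.196) and Irf8 (FDR 0.275) then being no DEGs. Cxcl9 differed from naïve skin by 0.59, where saline skin differed by 4.27, and Cxcl11 was near background in both groups with a saline mean of 6.92. None of 10 genes of MHC class I loading and none of 9 of class II presentation was a DEG. The 95% interval lay inside 2-fold for 6 of these class I and 4 of these class II genes. It did so for 1 of the 21 type I interferon-stimulated genes and 6 of the 19 interferon-gamma genes, against 75.5% over all probe-sets. The small numbers of DEGs in these lists therefore do not show a return to the naïve level.

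Macrophage genes were among those with the largest rises. They were chosen for the size of the difference where the 2 groups were separate, so the sizes are given as a description. Marco, a scavenger receptor of macrophages, was at 13.41, 12.75, 12.32, 11.87 and 11.75 in IMO-8400 mice and at 3.38, 3.51, 3.59, 2.31 and 2.88 in naïve mice. It was 624-fold higher (9.28 on the log2 scale, 8.49 to 10.1, FDR 2.55e-11) and 0.24 below saline skin (FDR 0.685). With naïve values this close to background the fold is uncertain, and the smallest log2 difference of Marco over the alternative models was 8.42. Acod1, the itaconate-making enzyme of activated macrophages, was at 9.89, 11.50, 10.09, 9.79 and 11.75 against 2.04 in every naïve mouse, at least 194-fold higher when the naïve level is set to 3. Clec4d and Clec4e, C-type lectin receptors for fungal and mycobacterial glycolipids, were higher by 6.75 (5.30 to 8.20) and 6.10 (4.36 to 7.83). Cd5l, a protein secreted by macrophages, was higher by 5.94, with the naïve mice spread from 2.26 to 9.00. Slc13a3, a dicarboxylate transporter, was higher by 6.43 with a naïve spread of 3.18 to 9.33.

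**Figure D3:**
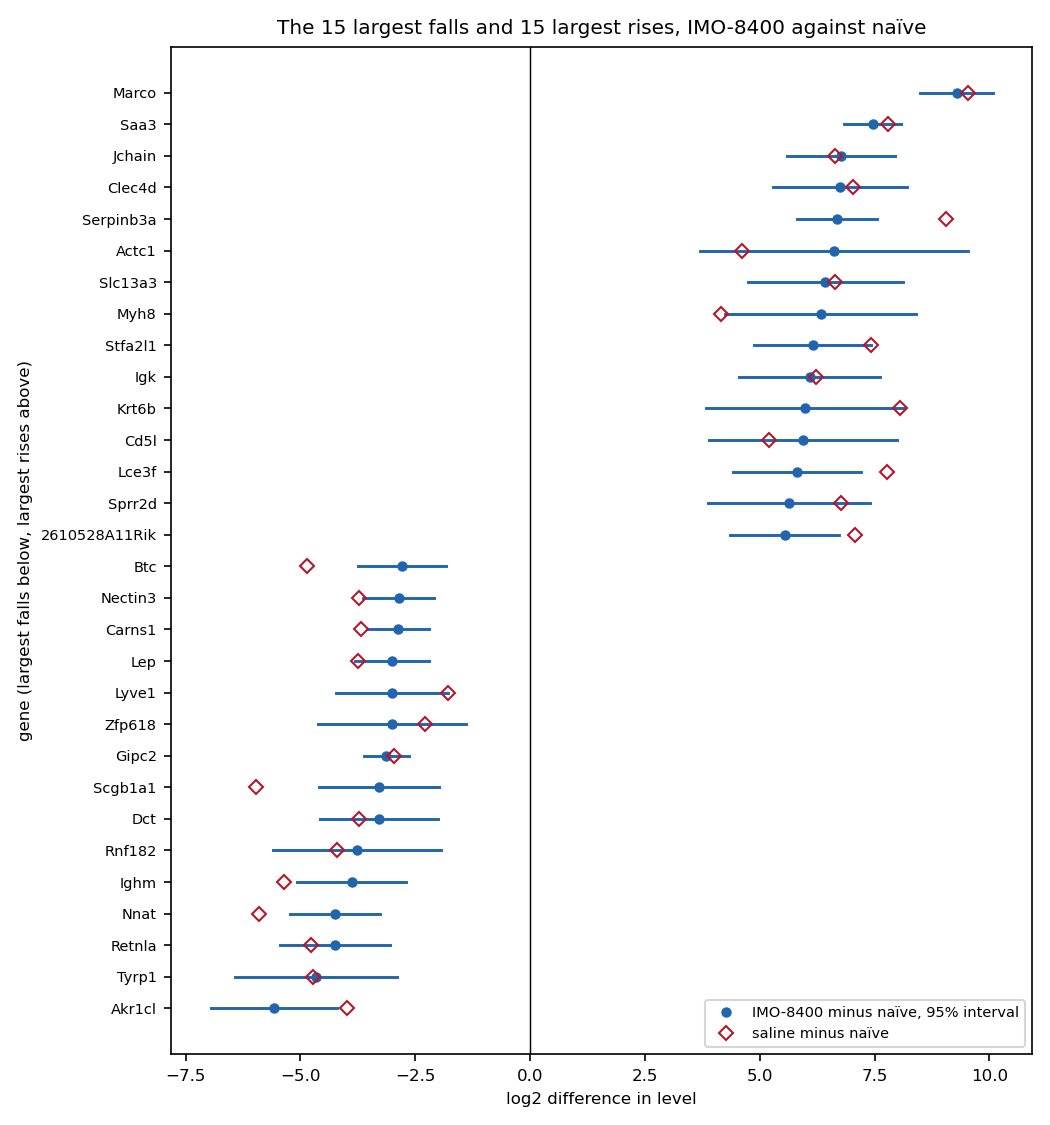
Log2 difference from naïve skin (x axis) for 15 genes at each extreme of the difference in IMO-8400 skin, taken from DEGs with no overlap between the 2 groups and with both means at 3 or more. Filled points with lines are IMO-8400 minus naïve with the 95% interval, and open diamonds are saline minus naïve, on the same naïve arrays. Marco, Saa3, Jchain and Clec4d lie next to their saline value, Serpinb3a and Lce3f lie short of it, and Actc1, Myh8, Akr1cl and Lyve1 lie further from 0 than saline skin.

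Genes of macrophages and monocytes were higher in 7 of 18 tested members (11 higher and 1 lower in saline skin), with a list mean of 11.6 to 12.3 in IMO-8400 mice, of 8.35, 9.84, 10.38, 10.92 and 11.05 in naïve mice and of 12.5 to 12.9 in saline mice. Besides Marco and the lectins these were Fcgr4 by 2.65, Msr1 by 2.12, Ms4a7 by 1.89 and Adgre1, the F4/80 antigen, by 1.42. Csf1r and Cd68, which most tissue macrophages express, were no DEGs (0.42 and 0.88). The count was 6 without naïve mouse 16, 5 without mice 16 and 17 and 3 with the hair level as a covariate. The macrophage chemokines Ccl3 and Ccl4 were among the clearest rises: Ccl3 was at 10.33, 10.57, 10.45, 9.82 and 11.27 against 2.20, 2.18, 2.20, 3.32 and 3.98, higher by 7.71 (6.71 to 8.71, FDR 9.21e-09), and Ccl4 was higher by 5.49 (4.41 to 6.57). Neither differed from saline skin at the threshold (FDR 0.227 and 0.0871). Ccl2 and Ccl7, which attract monocytes, were no DEGs, with differences of 1.35 and 1.73.

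Of 12 tested genes of alternative macrophage activation and type 2 responses 1 was higher and 2 were lower, with a median of −0.09. The higher one was Chil3, a chitinase-like protein of such macrophages, by 3.20 (1.04 to 5.36, FDR 0.0386), and it was no DEG without naïve mouse 16 (FDR 0.0922) and under 12 other alternative models. The lower count was 4 without naïve mouse 16. Retnla, a resistin-like protein induced by IL-4 and IL-13, was at 9.63, 9.65, 11.05, 10.67 and 8.82 in IMO-8400 mice and at 12.60, 14.60, 14.64, 14.67 and 14.54 in naïve mice. It was lower by 4.25 (−5.44 to −3.06, FDR 7.61e-05), a 19.0-fold fall that was 27.1-fold in saline skin. Ccl24, an eosinophil chemokine, was near background in every IMO-8400 mouse (2.07 to 2.94) and at 2.92, 6.74, 7.97, 5.89 and 7.42 in naïve mice, so that the log2 fall was at least 3.19. Lyve1, a hyaluronan receptor of lymphatic vessels and of a class of resident macrophages, was at 8.22, 8.26, 8.09, 8.32 and 7.77 against 8.81, 9.61, 11.57, 13.37 and 12.36. It was lower by 3.01 (−4.22 to −1.80, FDR 0.00187). Prox1, the defining factor of lymphatic endothelium, was no DEG (0.72), and Lyve1 was the only DEG among 14 endothelial genes. Arg1 and Mgl2 had differences of −1.76 and −1.84 and were no DEGs.

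Genes of antibody-making cells stayed higher. Of 8 tested genes of B and plasma cells 5 were higher, with a median of 3.15 (3.28 in saline skin), and none differed between IMO-8400 and saline skin in either direction at the threshold. Where each gene was read by its probe-set with the largest change, 4 were higher and 1 was lower. The list mean was 9.94, 9.36, 9.41, 8.23 and 9.57 in IMO-8400 mice, 5.01, 6.00, 6.36, 5.86 and 6.76 in naïve mice and 8.35 to 10.5 in saline mice. Jchain, which joins IgM and IgA units, was at 11.50, 11.14, 10.94, 9.76 and 12.05 against 3.27, 5.23, 4.61, 4.05 and 4.36, higher by 6.77 (5.60 to 7.95, FDR 3.65e-07). Mzb1, an endoplasmic reticulum protein of plasma and marginal zone B cells, was at 9.78, 8.86, 8.15, 6.12 and 9.52 against 2.02 to 2.87, a log2 rise of at least 5.48. Cd22 was higher by 3.97 (3.42 to 4.51) and Cd79b by 3.67 (2.57 to 4.77), both B cell surface proteins, while Ms4a1, the CD20 gene, was no DEG (1.60). Cd79a and Pax5 were not tested or not analysed here.

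Immunoglobulin probe-sets need care, since constant and variable segments are near copies of each other and can share probes. Igk was at 13.64, 13.53, 13.34, 12.12 and 13.65 in IMO-8400 mice and at 3.15, 8.68, 8.19, 7.92 and 7.88 in naïve mice, higher by 6.09 (4.56 to 7.63), and another Igk probe-set differed by 1.26 and was no DEG. For Ighm the probe-sets went in opposite directions: the one with the highest mean was higher by 2.63 and another by 2.02, while a DEG of the same gene was lower by 3.88 (3.22 to 5.54 in IMO-8400 and 5.62 to 8.89 in naïve mice) and others by 3.69, 2.40 and 2.05. No direction is given for Ighm as a gene, and a list count that holds it depends on the probe-set read.

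T cell and cytotoxic genes lay in part between the naïve and the saline level. Of 16 T cell genes 9 were higher than in naïve skin (14 in saline skin) and 6 lower than in saline skin, and of 14 genes of cytotoxic and NK cells 9 were higher than in naïve skin (11 in saline skin) and 7 lower than in saline skin. Cd4 was at 11.41, 11.11, 11.25, 10.59 and 11.07 against 5.08, 6.73, 8.10, 5.08 and 9.43, higher by 4.20 (2.92 to 5.49, FDR 1.74e-04); its other probe-set, at a lower mean, was no DEG (0.81). The costimulatory receptor Icos was higher by 3.35, Cd8a by 2.91 and the adaptor Lat by 2.21, whereas Cd3e (9.47 to 9.79 against 8.03 to 9.69) and Cd3g, which every T cell needs, were no DEGs. Foxp3, the factor of regulatory T cells, differed by 0.21. With the hair level as a covariate the counts were 6 and 4.

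Among the cytotoxic genes the granule proteases Gzmb and Gzma were higher. Gzmb was at 8.44, 9.93, 10.02, 8.98 and 10.03 against 2.16, 4.85, 7.33, 6.20 and 6.54, higher by 4.07 (2.51 to 5.62, FDR 0.00121), and lower than in saline skin by 2.53 (FDR 0.0167). Gzma was at 11.42 to 12.60 in IMO-8400 mice and at 9.28 to 9.91 in 4 naïve mice with 3.10 in naïve mouse 16. Its difference was 3.86 with that mouse and 2.59 without it (FDR 2.66e-05). Ccl5, a chemokine of activated T cells, was higher by 4.88 (3.49 to 6.27, FDR 8.93e-05), and Il2rb, the IL-2 and IL-15 receptor chain, by 3.33. Prf1, perforin, was no DEG (−0.13). Il2ra, the high-affinity IL-2 receptor chain, was at 6.07, 5.99, 6.99, 5.49 and 5.34 against 4.05 to 4.29, higher by 1.75 (1.26 to 2.23, FDR 6.92e-05), and it was also higher than in IMO-3100 skin by 1.26 (FDR 0.0105).

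Of 8 tested neutrophil genes, 3 were higher than in naïve skin (7 in saline skin) and 6 were lower than in saline skin. The higher ones were Fpr2 by 4.09, the G-CSF receptor Csf3r by 3.11 and the chemokine receptor Cxcr2 by 2.78. Cxcr2 was at 7.16, 7.01, 7.35, 6.99 and 7.56 against 4.17, 3.08, 4.55, 4.88 and 5.49, with a saline mean of 8.97. With the hair level as a covariate the count was 1, Fpr2 (FDR 0.128) and Csf3r (FDR 0.0877) then being no DEGs. Cd177 and Trem1 were near background in both groups, with saline means of 5.76 and 5.72, and Mmp8 had a mean of 2.50 against 6.71 in saline skin. In the mast cell and basophil list Fcer1a, Hdc, Tpsb2 and Cma1 were higher by 2.61, 2.43, 1.09 and 1.08, and Mcpt8, the basophil protease, with a saline mean of 8.12, was near background in both groups. Without naïve mouse 16 Fcer1a and Hdc were left as DEGs of that list, since Tpsb2 and Cma1 fell below 2-fold.

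**Figure D4:**
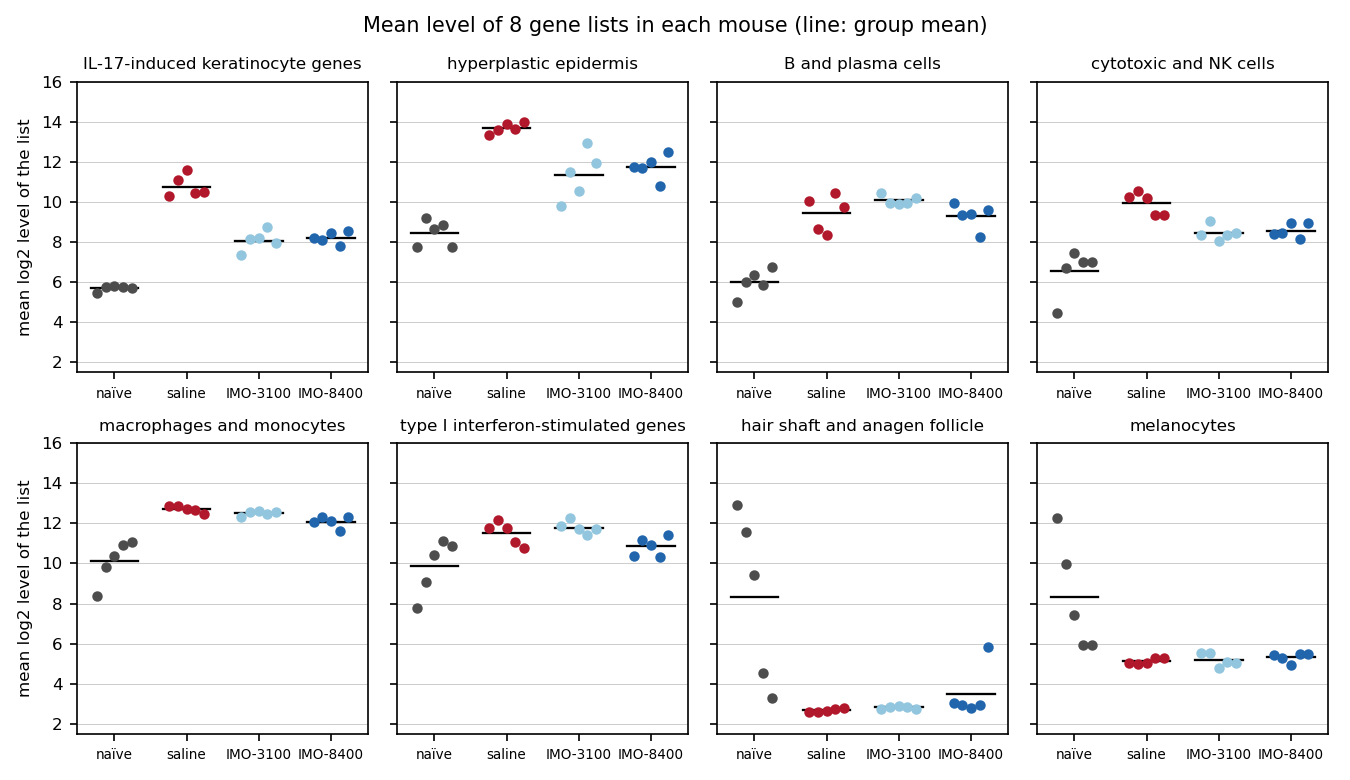
Mean log2 level (y axis) of the tested members of 8 gene lists in each of the 20 mice, by group, with a line at the group mean. The IL-17-induced keratinocyte genes lie between naïve and saline mice in IMO-8400 skin, the B and plasma cell genes lie with the saline mice, and in naïve mice the hair list runs from 12.9 down to 3.28 and the melanocyte list from 12.2 down to 5.95.

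Of the lower genes a large group belonged to the growing hair follicle and its pigment cells, and these differed among naïve mice more than between groups. In the hair shaft and anagen follicle list 19 of 22 tested genes were lower in IMO-8400 skin (21 in saline skin). The list mean was 12.90, 11.56, 9.42, 4.54 and 3.28 in naïve mice 16 to 20 and 3.03, 2.93, 2.79, 2.95 and 5.81 in IMO-8400 mice, so the groups overlapped. Krt25, which the inner root sheath of the follicle makes, was at 15.14, 14.90, 13.77, 10.04 and 5.67 in naïve mice and at 2.02, 2.02, 2.02, 2.57 and 12.44 in IMO-8400 mice. Leaving out naïve mouse 17 gave 6 lower genes, leaving out 16 gave 10, leaving out both gave 1, and leaving out mice 16 to 18 gave 0. Tyrp1 and Dct, enzymes of melanin synthesis, were lower by 4.66 and 3.29, and naïve mice 16 to 18 had the highest values of both. The melanocyte list had 5 lower of 9, and 2 without naïve mouse 17. The same naïve mouse 16 that had the highest hair mean had the lowest means of the macrophage, T cell, cytotoxic and type I interferon lists, and the part of the hair level in those differences was not tested beyond the covariate counts given.

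Other falls concerned metabolic, fat and signaling genes whose 2 groups did not overlap, except Hamp. Akr1cl, an aldo-keto reductase, was at 3.19, 3.69, 4.12, 4.93 and 3.66 in IMO-8400 mice and at 10.27, 8.65, 9.42, 10.15 and 9.00 in naïve mice. It was lower by 5.58 (−6.96 to −4.20, FDR 2.04e-05), which is 47.8-fold, against 15.7-fold in saline skin. Lep, leptin of fat cells, was at 4.74, 6.15, 5.74, 5.74 and 6.71 against 8.76, 8.89, 8.52, 9.43 and 8.51, lower by 3.00 (−3.80 to −2.21, FDR 4.48e-05), and was the only DEG among 14 adipocyte genes, where 7 were lower in saline skin; without naïve mouse 16, 2 adipocyte genes were lower. Btc, betacellulin, a ligand of the EGF receptor, was lower by 2.79 and less so than in saline skin (−4.86), while Hbegf, another ligand, was higher by 2.35. Gipc2, a scaffold protein, was lower by 3.13 (−3.63 to −2.64, FDR 1.10e-07), Nnat, neuronatin, by 4.24, Carns1, carnosine synthase, by 2.88 and the adhesion molecule Nectin3 by 2.86. Hamp, hepcidin, was at 2.70 to 3.12 in IMO-8400 mice and at 2.96, 4.83, 7.28, 8.13 and 9.48 in naïve mice, lower by 3.62.

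Some gene lists held few DEGs or none against naïve skin. Over all probe-sets 6.04% were DEGs and 75.5% had intervals inside 2-fold. Of the 15 cholesterol synthesis genes and the 10 respiratory chain genes none was a DEG, and for all of these genes the interval lay inside 2-fold; among 18 skeletal muscle genes the same held for 16, and 1, the titin cap gene Tcap, was higher by 1.30. Among 34 cell cycle genes none was higher and 3, Aurkb, Bub1 and Kif11, were lower by 1.15, 1.07 and 1.08, while 17 were lower than in saline skin; without naïve mouse 16 none was lower than in naïve skin by the rule. Of 19 fibroblast and matrix genes Col4a2 alone was a DEG, lower by 1.01, and it fell below 2-fold without IMO-8400 mouse 4 and without naïve mouse 16, 19 or 20. The interval lay inside 2-fold for 24 of the 34 cell cycle genes and 14 of the 19 fibroblast and matrix genes. These counts are near the share over all probe-sets, so these 2 lists were no closer to naïve skin than probe-sets in general.

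A few genes lay beyond the naïve and the saline level together. These were counted among probe-sets with a single gene symbol that were DEGs of IMO-8400 against both naïve and saline skin. The IMO-8400 mean was above the means of both groups for 61 of them and below both for 36. Of all 30936 tested probe-sets, with or without a symbol, 1867 were DEGs against naïve skin and 2490 against saline skin. Scgb1b27, a secretoglobin whose family of close copies may share probes, was at 10.84, 9.73, 9.20, 9.70 and 9.07 in IMO-8400 mice, at 2.03 to 2.44 in naïve mice and had a saline mean of 2.28. Its level was at least 6.71 log2 units above both naïve skin (FDR 2.73e-11) and saline skin (FDR 5.91e-11), and its mean in IMO-3100 skin was 8.94. Acsm1, a medium-chain acyl-CoA synthetase, was higher than in naïve skin by 2.72 and Trank1 by 1.75. Ugt3a2, a glycosyltransferase, and Mybpc3, the cardiac myosin-binding protein C, started near background and were higher by at least 1.84 and 2.47. The lower genes of this kind included Plod2, a collagen lysyl hydroxylase (−2.59), the protease inhibitor Pi15 (−1.98), the proteoglycan protease Adamts4 (−1.93), the proteoglycan Vcan (−1.62, FDR 0.048) and the repair gene Rad51ap1 (−1.19, FDR 0.0495). The last 2 were close to the threshold: Vcan lost the call under 21 alternatives (FDR 0.0923 without naïve mouse 16) and Rad51ap1 under 22 (−0.78, FDR 0.106 without that mouse), and their 4 and 3 other probe-sets were no DEGs.

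The circadian clock list was another such group. Of 15 genes 4 were higher and 2 lower than in naïve skin, where none was higher and 2 lower in saline skin, and 6 were higher than in saline skin. The list mean was 9.41 to 9.75 in IMO-8400 mice, 9.29 to 9.55 in IMO-3100 mice, 8.67 to 9.27 in naïve mice and 8.57 to 8.89 in saline mice. The list means of IMO-3100 mice thus also lay above those of all naïve mice, by little at the nearest. IMO-3100 skin was not tested against naïve skin. No member was a DEG between the 2 antagonists, but 0.579% of all probe-sets were, so a count of none says little about the clock genes. Nr1d1, the repressor REV-ERB alpha, was at 10.69, 10.62, 10.11, 9.99 and 10.18 in IMO-8400 mice and at 6.98, 9.14, 8.63, 7.15 and 8.11 in naïve mice, higher by 2.31 (1.65 to 2.98, FDR 9.81e-05). Dbp, a clock output factor, was at 12.45, 12.40, 12.13, 11.93 and 12.14 against 8.97, 10.82, 10.75, 9.02 and 10.43, higher by 2.21 (1.57 to 2.84, FDR 9.55e-05). Per1 was higher by 1.48 and Per3 by 1.13, and Npas2 and Cry1 were lower by 1.12 and 1.03. Saline skin differed from naïve skin in Nr1d1, Dbp and Per3 by 0.94, 0.94 and 0.02. Over the models without 1 array the higher count lay between 3 and 5, and the lower count was 0 without IMO-8400 mouse 5. The sources used here do not give the hour at which skin was taken from each group, and its part was not tested. Some immediate early genes also differed from naïve skin: Atf3, Fos, Junb, Ier2 and Zfp36 were higher by 1.86, 1.83, 1.35, 1.16 and 1.04, of 15 tested, and 3 were higher in saline skin. Unlike the clock list, none of the 15 was a DEG between IMO-8400 and saline skin. Their list means overlapped, at 11.04 to 11.85 in IMO-8400 mice and 10.62 to 11.16 in saline mice.

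**Figure D5:**
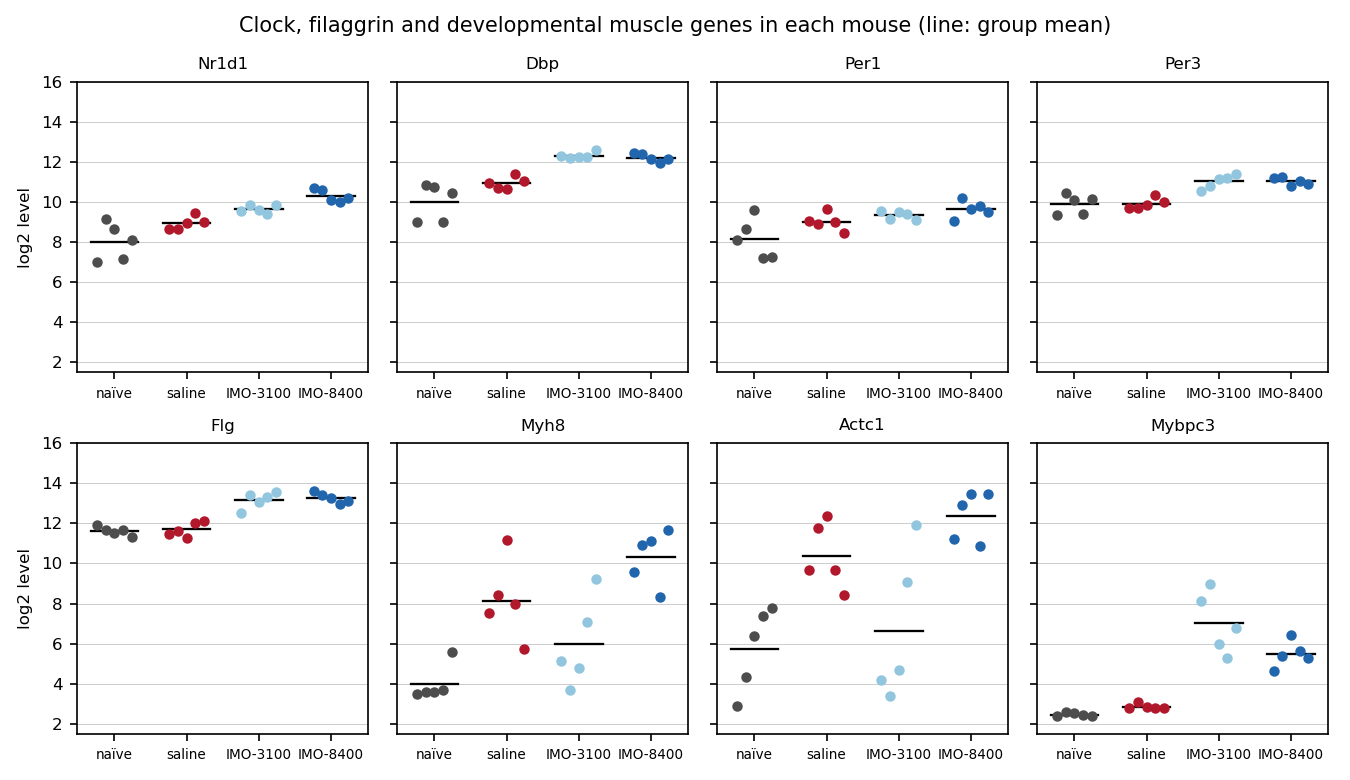
Log2 level (y axis) of clock genes (Nr1d1, Dbp, Per1, Per3), filaggrin (Flg) and developmental or cardiac muscle genes (Myh8, Actc1, Mybpc3) in each of the 20 mice, by group, with a line at the group mean. Nr1d1, Dbp and Flg lie higher in the IMO-8400 mice than in all naïve mice, and Myh8 and Actc1 lie higher in IMO-8400 than in IMO-3100 mice on average, with overlapping values.

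Among the largest rises were also 2 muscle genes. Myh8, the perinatal myosin heavy chain, was at 9.55, 10.89, 11.12, 8.33 and 11.67 in IMO-8400 mice and at 3.47, 3.58, 3.58, 3.70 and 5.58 in naïve mice, higher by 6.33 (4.25 to 8.40, FDR 3.42e-04), with a saline mean of 8.15. Actc1, the cardiac actin that regenerating muscle also makes, was at 11.22, 12.92, 13.45, 10.85 and 13.48 against 2.87, 4.36, 6.40, 7.38 and 7.77, higher by 6.63 (3.71 to 9.55, FDR 0.00353). Actc1 was no DEG without naïve mice 16 to 18 (FDR 0.091) or with the hair level as a covariate (FDR 0.097). The part of the injections in these differences was not tested. Between the antagonists 103 probe-sets (0.333%) were higher and 76 (0.246%) lower in IMO-8400 than in IMO-3100 skin, and without 1 array these counts ran from 27 (without IMO-8400 mouse 2) to 182 (without naïve mouse 16) and from 33 (without IMO-3100 mouse 8) to 177 (without naïve mouse 16). Myh8 and Actc1 were among the higher ones, by 4.33 (FDR 0.025) and 5.74 (FDR 0.0311), and their IMO-3100 means were 5.98 and 6.64.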

How the data were processed

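RNA of 20 skin samples, 1 mouse each, had been hybridised to the Affymetrix mouse4302 array, and the authors had inspected the scans and computed log2 values with GCRMA (version not given in the sources used here); the deposited log2 values were used as they are. They ran from 2.02 to 15.8. Precision is limited by the number of arrays. Of 45101 probe-sets, 64 array controls were left out (24 of them would have been tested). As in the study's methods, probe-sets above 2 in at least 3 arrays with an SD above 0.1 were kept; since the lowest value was above 2 on every array, the former removed 0 probe-sets, and 30936 were tested. Group means of all 4 groups were fitted with limma 3.58.1 in R 4.3.3, with Benjamini-Hochberg adjustment over all tested probe-sets. DEGs had FDR<0.05 and FCH>2. Groups came from the labelled treatment. Levels under 3 were taken as near background, and where a group had all 5 arrays there, its mean was raised to 3 for a bound. Platform annotation gave 34958 probe-sets a single gene symbol, 932 several and 9211 none. In a gene list, a gene is read by its probe-set with the highest mean over all arrays.

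Genes were named by rule. The rules took the 15 largest rises and falls among DEGs whose groups did not overlap, with both means at least 3. They also took the 8 largest bounds in each direction and up to 4 DEGs a list. The genes of the IL-17, IL-36 and TLR pathways that the study's question concerns were added. So were 5 genes in each direction whose IMO-8400 mean lay outside the range of the naïve and saline means. These were DEGs of IMO-8400 against both groups, taken by the largest difference between IMO-8400 and saline skin. Other list members are named to complete their list's count, after their values were seen. The comparison, the 51 gene lists and the named genes were chosen with earlier results of these data known. The model was tested on simulated data that gave all groups the same spread per probe-set, so that test does not cover the wider spread among naïve mice. Alternatives changed the filter, a floor of 4, the scaling, the model, the probe-set per gene and the arrays left out, and added the hair list mean as a covariate; leaving out naïve mice 16 to 18 together and keeping the array controls were chosen after seeing the data. Figures were drawn with matplotlib 3.10.9 in Python 3.11.15.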

Additional observations from a re-analysis of the deposited data

Results flagged for a closer look

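Within a group of 5 mice, a value was singled out where the mouse at one end lay far from the others for the group's range, by Dixon's test at the 95% level; chance does this in about 1 in 20 groups, and 51 lists and 173 probe-sets of named genes were examined in each group. Naïve mouse 16 accounts for 7 of the 51 naïve list means and 21 of the 173 naïve gene values. Its list means were low for the IL-17-induced keratinocyte genes (5.453), the IL-1 and IL-36 family (8.44), MHC class II presentation (8.955), cytotoxic and NK cells (4.456), Langerhans and dendritic cells (6.331), the LCE1 family (10.95) and endothelium (7.66).

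Its low values among immune genes were Ccl5 (3.167), Ccr6 (3.288), Ccr7 (2.032), Cd209a (7.735), Gzma (3.096), Igk (3.152), Il18rap (2.142), Il2ra (4.049), Il7r (6.526), Itgax (5.57), Nfkbid (2.604) and Tlr7 (5.288). Among epidermal and other genes they were Il1f8 (7.069), Il1f9 (8.223), Hrnr (11.88), Lce1f (10.89), Sprr2d (3.58), Retnla (12.6), Sfrp4 (8.599) and Trank1 (3.48), and its Junb (7.41) was high. Of the other naïve mice, mouse 17 had a high Tnfrsf11b (7.064), mouse 18 a high Defb3 (3.331), mouse 19 a high Clec4e (4.498) and mouse 20 a high Myh8 (5.576).

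IMO-8400 mouse 4 accounts for 17 of the 173 IMO-8400 gene values and 2 list means, cell-surface TLRs (9.186) and leukocyte adhesion (9.195), both low. It was low in Batf (7.283), Cd180 (9.04), Cd22 (6.766), Chil3 (7.803), Cyba (11.66), Defb3 (6.209), Igk (12.12), Irf8 (10.69), Itgal (8.895), Selplg (10.75), Sprr2d (12.54), Tlr1 (10.88), Tlr6 (6.958), Tnfrsf1b (10.74), Unc93b1 (9.519) and Zfp618 (2.511), and high in the Ighm probe-set that was lower in IMO-8400 skin (5.539). IMO-8400 mouse 5 was high in the hair list (5.812) and in its genes Krt25 (12.44), Krt27 (9.752), Krt33a (7.671) and Krtap8-1 (8.9). IMO-8400 mouse 3 was high in the alternative activation list (8.68) and in Gsdmc2 (10.41) and low in Tyrp1 (4.144).

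The 2 antagonists differed by the test of the difference itself in 3 named genes: IMO-8400 skin was higher than IMO-3100 skin in Actc1 by 5.74, in Myh8 by 4.33 and in Il2ra by 1.26 on the log2 scale.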

How the results depend on the processing

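Over 31 alternatives, the counts of DEGs stayed within 1.5 times the reported count in 228 cases and moved further in 20. For IMO-8400 against naïve skin, the model with these 2 groups alone gave 728 higher and 357 lower. For IMO-8400 against IMO-3100 skin the higher count was 59 with no filter, 178 without naïve mice 16 and 17 and 181 without 16 to 18, and the lower count was 198 with the 2 groups alone, 211 without naïve mice 16 and 17 and 219 without 16 to 18. Leaving out each array in turn gave 910 (without naïve 16) to 1304 (without naïve 20) higher and 577 (without naïve 17) to 893 (without naïve 20) lower for IMO-8400 against naïve skin, 2179 to 2474 and 2521 to 2965 for saline against naïve, 1181 to 1467 and 917 to 1262 for IMO-8400 against saline, and 27 (without IMO-8400 mouse 2) to 182 (without naïve 16) and 33 (without IMO-3100 mouse 8) to 177 (without naïve 16) for IMO-8400 against IMO-3100.

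Of the differences of single genes, 4906 kept direction and call, 403 lost the call and 11 changed sign. The latter were Gprc5d (0.0096 without naïve mice 16 to 18), Il6 (0.015 without naïve 19, against −0.068 without naïve 20, its lowest), Krt33a (0.57 with the hair covariate) and Tlr8 (−0.072 with a floor of 4, −0.64 with the hair covariate, −0.45 without naïve mice 16 and 17, −0.65 without 16 to 18, and −0.068 to 0.52 over the models without 1 array, where naïve 16 and 20 gave the ends). Krt33a belongs to the hair list whose mean is that covariate, so its own level is part of the adjustment. The cause of the sign changes was not tested. Scaling moved the median of all probe-sets by less than 0.1, and keeping the array controls changed no count by over 1.5 times. No paired analysis was possible because the groups share no replicate numbers.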

Other observations

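Antigen-presenting and adhesion genes gave smaller counts. Of 12 Langerhans and dendritic cell genes 4 were higher in IMO-8400 than in naïve skin, namely Siglech, a marker of plasmacytoid dendritic cells that respond through TLRs 7 and 9, by 2.09, Ccr7 by 1.49, Itgax by 1.36 and langerin, Cd207, by 1.34, and Cd209a was lower by 1.61, with FDRs of up to 0.113 (without IMO-8400 mouse 5) in models that left out 1 array, most of which lost the call. Siglech was at 7.18, 6.54, 6.33, 4.78 and 5.08 in IMO-8400 mice and at 2.33, 5.47, 3.42, 3.11 and 5.11 in naïve mice, so the groups overlapped. Without naïve mouse 16 the count of higher genes in that list was 1, and with the hair level as a covariate or with the 2 groups alone it was 0. Ccr7 lost the call under 21 alternatives (FDR 0.112 without naïve mouse 16). Of 8 leukocyte adhesion genes 4 were higher, led by Itgal, the LFA-1 chain, by 2.98, and without naïve mouse 16 the count was 1; the endothelial selectins Sele and Selp, 2.38 and 2.03 above naïve in saline skin, differed by 0.07 and 0.38.

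Of 9 genes of nitric oxide and NADPH oxidase 3 were higher, Cybb by 1.57, Ncf4 by 1.48 and Cyba by 1.37, all subunits of the phagocyte oxidase, and none without naïve mouse 16. Among 16 matrix proteases and inhibitors Mmp12, the macrophage elastase, was at 9.31, 8.72, 10.08, 9.21 and 8.86 against 5.29, 8.40, 6.80, 6.13 and 5.45, higher by 2.82 (1.78 to 3.87, FDR 9.05e-04), and Timp1 was higher by 1.27, a call lost under 9 alternatives (FDR 0.0643 without naïve mouse 16), so that 1 gene of the list was left without naïve mouse 16 or 17 or IMO-8400 mouse 3 or 5. Mmp10 was near background in both groups, with a saline mean of 5.39, and Mmp13 had a mean of 2.80 against 7.38 in saline skin. In the Wnt pathway Wnt16 was higher by 1.96, and Lef1, Wif1, Sfrp4 and Wnt5a were lower by 1.84, 1.57, 1.24 and 1.18. The lower count was 2 without IMO-8400 mouse 1 or 3 or naïve mouse 17, and 1 without naïve mice 16 and 17; with the hair level as a covariate 1 was lower and none higher (Wnt16 FDR 0.058). Lef1, which the growing hair follicle uses, was highest in naïve mice 16 and 17 (12.39 and 11.21), the mice with the highest hair means.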
